A study of Mus musculus with 8 samples.

Results

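Imprint maintenance factors are the proteins that keep DNA methylation and the repressive histone mark H3K9me3 in place on the silenced parental allele of imprinting control regions (ICRs). The messenger RNA of 7 of them was read here in mouse embryonic stem cells (ESCs) and in neural precursor cells (NPCs): *Zfp57*, *Zfp445*, *Trim28*, *Setdb1*, *Dppa3*, *Arid4a* and *Arid4b*. They were chosen by symbol, as 7 rows of the 26263 genes in the deposited count tables, and all 7 passed the filter on low counts that left 16399 genes for testing.

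RNA-seq libraries were made from 2 hybrid male ESC lines, BJE2 from a C57BL/6 x JF1 cross (B/J) and JBE6 from the reciprocal cross (J/B), each represented by a single line, so that a difference between the crosses cannot be told apart from a difference between the lines. ESCs were grown on gelatin in medium with LIF, BMP4 and a GSK3-β inhibitor. NPCs were obtained from the same lines at day 12 of *in vitro* corticogenesis, on Matrigel in a defined medium with B27 lacking vitamin A and a dorsomorphin homolog. Each of the 4 groups held 2 libraries, 8 in all, and no genotype was modified. The labels do not say whether the replicates were separate cultures, so that p-values measure only the spread between these libraries.

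In the mouse, ZFP57 and ZFP445 are KRAB zinc finger proteins that recognise ICR sequences. ZFP57 binds a short motif with a methylated CpG, and KRAB domains recruit TRIM28 (KAP1), a scaffold that brings in the H3K9 methyltransferase SETDB1, heterochromatin proteins and DNA methyltransferases. DPPA3 (PGC7, STELLA) is a maternal factor that shields the methylated maternal genome from TET-dependent oxidation in the zygote and also restrains the methylation cofactor UHRF1. ARID4A and ARID4B bind the retinoblastoma protein and belong to SIN3 histone deacetylase complexes, and their loss alters imprinting marks in the mouse.

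From ESCs to NPCs, the mRNA of the factors did not move as a block. *Dppa3*, *Zfp57* and *Trim28* fell the most, by 54.9-fold, 7.499-fold and 6.08-fold in the fit over both crosses (for *Dppa3*, the ratio of the stage means was 36.9 and the log2 fold change moved from -5.78 to -5.04 without ESC J/B replicate 2), and *Setdb1* fell by 1.93-fold. *Arid4a* was lower by 1.48-fold at an adjusted p of 0.0483, *Arid4b* rose by 1.46-fold, and *Zfp445* was not called. Thus 5 of the 7 factors were called lower and 1 higher, where 31.9% of all genes tested were called lower and 37.5% higher. Of 19 alternative settings, *Arid4a* lost its call in 12, *Arid4b* in 5 and *Setdb1* in 1, so that 4 factors were lower on library totals and 3 with housekeeping scaling. Over all 16399 genes, 11438 were called on library totals, 8016 of them higher, and 11293 with housekeeping scaling, 8469 of them higher. With TMM 11378 were called, 6145 of them higher, so that fewer genes were called lower under both other scalings. The median log2 fold change of the 7 factors was -0.95, against 0.17 over every gene tested. Every NPC library lay below every ESC library for 4 factors, *Zfp57*, *Trim28*, *Setdb1* and *Dppa3*, an arrangement that 31.2% of all genes showed. Every NPC library lay above every ESC library for 1 factor, *Arid4b*, as for 35.3% of all genes.

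**Figure D1:**
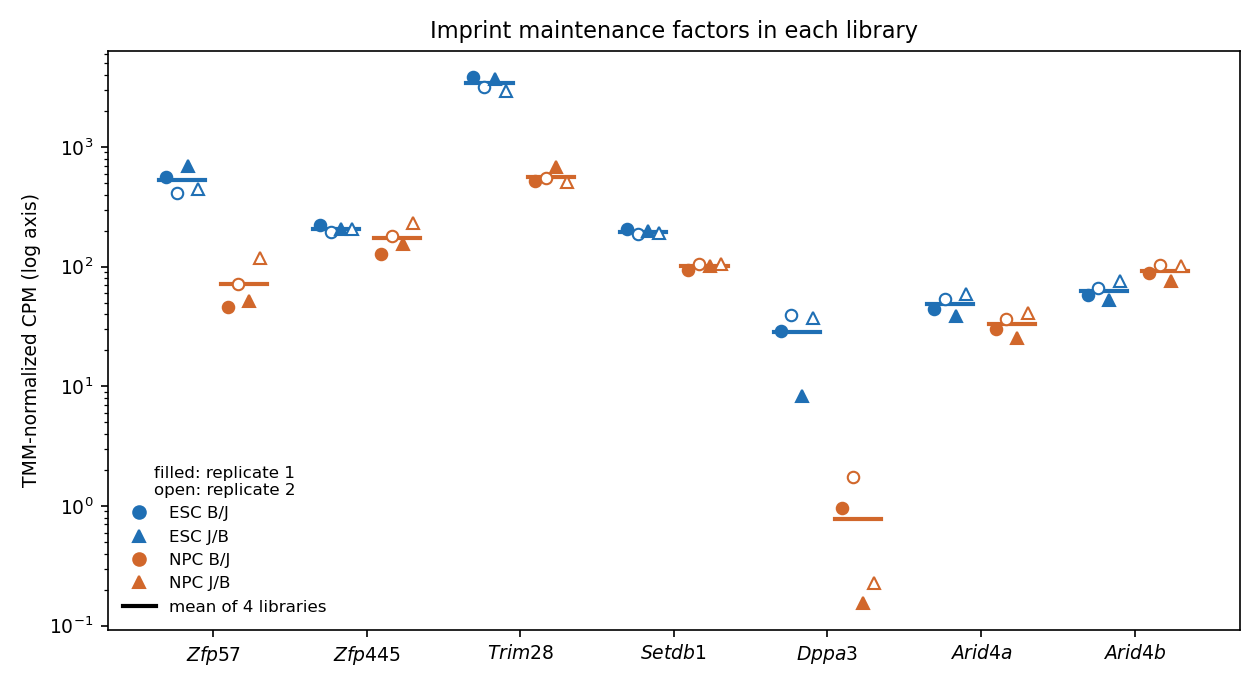
Level of the 7 factors in each of the 8 libraries, as CPM normalized by TMM, on a log axis. Circles are B/J and triangles J/B libraries, filled for replicate 1 and open for replicate 2, and horizontal bars are means of 4 libraries; the NPC points lie apart from the ESC points for *Zfp57*, *Trim28*, *Setdb1*, *Dppa3* and *Arid4b* and overlap them for *Zfp445* and *Arid4a*.

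The gene counts of a library summed to 22537138 at least and 32706015 at most, so that 1 count was worth 0.0306 to 0.0444 CPM. Levels are given below as CPM normalized by TMM, a method that assumes that most genes do not change between libraries. Its factors were 0.820 to 0.885 in ESCs and 1.14 to 1.21 in NPCs, so that the scaling weighs on every comparison of the stages. Over the tested genes, the middle log2 fold change moved from 0.17 under TMM to 0.65 on library totals and 0.80 under scaling to housekeeping genes (*Gapdh*, *Gusb*, *Tbp*). Relative to the other genes, the order of the factors was as follows. In the TMM fit 0.640% of genes had a lower log2 fold change than *Dppa3*, 4.25% than *Zfp57*, 5.07% than *Trim28*, 22.8% than *Setdb1*, 31.8% than *Arid4a*, 39.5% than *Zfp445* and 58.3% than *Arid4b*.

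The cell identity of the libraries was checked against marker lists. The summed level of 10 pluripotency markers was 5658 to 8692 CPM in ESCs and 200.6 to 409.8 CPM in NPCs, and all 10 were called lower in NPCs. Of 8 neural precursor markers, 7 were called higher in NPCs, with sums of 306 to 405 CPM in ESCs and 646 to 1483 CPM in NPCs, and *Pax6* was not called. Of 10 trophoblast markers, all 10 were called higher in NPCs, with sums of 14.9 to 88.8 CPM in ESCs, where *Tpbpa*, *Prl2c2*, *Prl3d1* and *Pappa2* had 0 counts in all 4 libraries, and of 1147 to 3146 CPM in NPCs. Of 10 fibroblast markers, 9 were called higher, with sums of 47.3 to 126 CPM in ESCs and 941 to 2167 CPM in NPCs. All 7 proliferation markers were called lower in NPCs, from 3321 to 4384 CPM in ESCs to 1006 to 1583 CPM. Of 7 neuron markers, 6 were called higher and 1 lower, with sums of 317 to 458 CPM in ESCs and 304 to 1630 CPM in NPCs. Markers of trophoblast, of fibroblasts, of neurons and of proliferation thus moved with the stage, and their part in the values below was not tested. NPC B/J replicate 1 had the lowest sums of neuron and neural precursor markers among the NPC libraries (304 and 646 CPM) and the highest trophoblast sum (3146 CPM), and it was the lowest NPC library for *Zfp57*, *Zfp445* and *Setdb1*. Without it the log2 fold changes were -2.77 for *Zfp57*, -0.16 for *Zfp445* (not called), -2.59 for *Trim28*, -0.91 for *Setdb1*, -5.60 for *Dppa3*, -0.50 for *Arid4a* (call lost) and 0.60 for *Arid4b*. ESC J/B replicate 1 stood apart from the other ESC libraries in markers given beside *Dppa3*. Without it the log2 fold changes between the stages were -2.73 for *Zfp57*, -2.52 for *Trim28*, -0.94 for *Setdb1*, -6.14 for *Dppa3* and -0.71 for *Arid4a*, all called, and 0.43 for *Arid4b* and -0.28 for *Zfp445*, not called. In such bulk samples, fewer cells that express a gene and less RNA per cell cannot be told apart.

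*Zfp57* lies on chromosome 17 of GRCm39 (chr17:37298936-37326192, plus strand). In ESCs its level was 560.2 CPM in B/J replicate 1, 412 CPM in B/J replicate 2, 699 CPM in J/B replicate 1 and 446 CPM in J/B replicate 2. In NPCs it was at 45.9 and 71.6 CPM in the B/J replicates and at 51.4 and 117 CPM in the J/B replicates. The stages did not overlap, with an ESC mean of 529 ± 129.7 CPM and an NPC mean of 71.5 ± 32.4 CPM (SD, n = 4 each). Replicate 1 was the higher library in both ESC groups and the lower one in both NPC groups. The log2 fold change was -2.91 (SE 0.32, adjusted p = 1.49e-04), -3.05 within B/J (SE 0.46, adjusted p = 0.00129) and -2.77 within J/B (SE 0.45, adjusted p = 0.00197). *Zfp57* was called lower in all 19 alternatives, between -3.68 in the libraries with replicate number 1 alone and -2.23 with housekeeping scaling (-2.23 also with replicate number 2 alone), and within J/B it was -3.48 without NPC J/B replicate 2.

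Among the 351 tested rows named Zfp and a number, which are mostly zinc finger genes, 141 were called lower and 77 higher in NPCs, and their median log2 fold change was -0.30. In the order of these rows from the lowest log2 fold change, *Zfp57* stood at place 24 and *Zfp445* at place 182.

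*Zfp445* lies on chromosome 9 (chr9:122673594-122695080, minus strand). It was read at 222 and 194 CPM in B/J ESCs and at 205 and 208 CPM in J/B ESCs, a spread of 5.38% of the mean over the 4 libraries (coefficient of variation). In NPCs it was at 127 and 181 CPM for B/J and at 154 and 229.7 CPM for J/B, a spread of 25.2%. The NPC libraries thus ran from below all ESC libraries to above them, with replicate 2 the higher one in both crosses. The log2 fold change of -0.27 (SE 0.18, adjusted p = 0.203) did not pass the test, nor did -0.43 within B/J (adjusted p = 0.172) or -0.11 within J/B (adjusted p = 0.731). With a block for the replicate number within each stage, an alternative added after the data were seen, *Zfp445* was called lower over both crosses (-0.29, adjusted p = 0.0183) and within B/J (-0.45, adjusted p = 0.0157). This block takes the deviation shared by libraries of 1 number within a stage out of the error. With each number alone, the log2 fold change over both crosses was -0.60 for number 1 and 0.016 for number 2. The direction depended on the scaling. The log2 fold change over both crosses was 0.21 on library totals and 0.38 with housekeeping scaling, neither of which was called (adjusted p = 0.324 and 0.171).

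The ratio of the counts of both KRAB zinc finger genes within a library does not depend on the scaling between libraries. There were 2.53 and 2.12 *Zfp57* counts per *Zfp445* count in B/J ESCs and 3.40 and 2.15 in J/B ESCs. The NPC libraries had 0.360 and 0.396 (B/J) and 0.333 and 0.510 (J/B). The ratio thus passed from above 1 in every ESC library to below 1 in every NPC library, a mean log2 difference of -2.66 with SDs of 0.32 in ESCs and 0.27 in NPCs (n = 4 each, described without a test).

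ZFP57 recognises the hexamer TGCCGC when its CpG is methylated. This hexamer was searched on both strands in the RefSeq promoter windows of GRCm38.p6, which hold 250 bases before and 50 bases after a start site, for 12 transcripts that start in or near maternally methylated ICRs. Of these, 10 had at least 1 window, 6 of the 10 held the hexamer, in 7 of their 15 windows, and 11.6% of all 32851 windows did. The hexamer itself holds a CpG, and the median of all windows was 7 CpGs. The 15 windows were not set against windows of like CpG content, so that these shares cannot show an excess of sites. *Peg13* and *Peg10* had no window. The sequences below show those sites, 1 per gene, on the strand of the gene, with the hexamer or its reverse complement GCGGCA in capitals and up to 10 bases on either side. They show the letters that ZFP57 can read and not a bound site.
Mest (chr6:30737973-30737998, plus strand): gaggggcgctGCGGCAggatgggcgg
Snrpn (chr7:60005186-60005211, minus strand): cccctgcattGCGGCAaaaatgtgcg
Plagl1 (chr10:13090732-13090757, plus strand): ggcgtgttgcGCGGCAaagcccacgg
Nap1l5 (chr6:58907135-58907160, minus strand): gccattcactTGCCGCgagccgcgaa
Mcts2 (chr2:152686898-152686916, plus strand): gccTGCCGCagcttggcgc
Nnat (chr2:157560095-157560120, plus strand): caccggggctGCGGCAttgcgcccag

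The 12 transcripts from these regions went mostly the other way from *Zfp57*. In NPCs 9 were called higher and 2 lower, with a median log2 fold change of 1.90 against 0.17 over all genes. *Airn*, the antisense RNA of the *Igf2r* domain, rose (adjusted p = 2.56e-04) from 0 to 0.128 CPM in the ESC libraries to 3.30 to 6.46 CPM in the NPC libraries, and *Nnat*, which encodes the proteolipid neuronatin, rose by 5.82 on the log2 scale (adjusted p = 3.98e-05) from a mean of 7.83 to 455 CPM. *Nap1l5* rose by 3.02 (adjusted p = 0.00312) and *Peg10*, a gene of retrotransposon origin needed in the placenta, by 2.45 (adjusted p = 4.40e-05). Of the 6 transcripts with a printed site, 4 were called higher (*Mest*, *Plagl1*, *Nap1l5* and *Nnat*) and 2 lower, and these are named here after their values were seen. *Snrpn*, which encodes a splicing protein, fell by 1.40 (adjusted p = 0.00567) and *Mcts2* fell by 0.83 (adjusted p = 0.0123), while *Zrsr1* was not called (log2 fold change -0.17, adjusted p = 0.392). Within J/B, and with housekeeping scaling over both crosses, 9 were called higher and 0 lower. These counts sum both alleles, so that they do not show whether the silenced allele was read.

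*Trim28* lies on chromosome 7 (chr7:12733041-12764976, plus strand). It was read at 3839 and 3182 CPM in B/J ESCs and at 3679 and 2929.7 CPM in J/B ESCs. In NPCs it was at 515 and 546 CPM for B/J and at 676 and 507 CPM for J/B. The highest NPC library was far below the lowest ESC library, and the means were 3407.5 ± 424 and 561 ± 78.5 CPM (SD, n = 4 each). Between the stages it fell, with a log2 fold change of -2.60 (SE 0.16, adjusted p = 1.81e-05), -2.73 within B/J (adjusted p = 1.99e-04) and -2.48 within J/B (adjusted p = 2.73e-04). It was called lower in all 19 alternatives, between -2.73 and -1.97, the latter with housekeeping scaling. In the GENCODE vM39 annotation of GRCm39, 2923 exonic bases of *Trim28* are shared on the opposite strand with *Chmp2a*, none of them between the canonical transcripts, and *Chmp2a*, with 1423 to 3077 counts per library, was not called between the stages (log2 fold change -0.05, adjusted p = 0.796).

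*Zfp57* and *Trim28* fell by similar folds, and their upstream sequences differ in CpG content. The sequences below are the 250 bases upstream of the most upstream RefSeq start of *Zfp57*, of 3 starts, and of the start of *Trim28*, from GRCm38.p6 on the plus strand, with each CpG in capitals.
Zfp57 (chr17:37000913-37001162): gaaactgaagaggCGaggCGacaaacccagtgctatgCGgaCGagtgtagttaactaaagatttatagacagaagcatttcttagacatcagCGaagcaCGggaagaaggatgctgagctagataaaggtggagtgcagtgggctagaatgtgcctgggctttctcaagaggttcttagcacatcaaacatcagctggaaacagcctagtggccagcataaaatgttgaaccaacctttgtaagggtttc
Trim28 (chr7:13023902-13024151): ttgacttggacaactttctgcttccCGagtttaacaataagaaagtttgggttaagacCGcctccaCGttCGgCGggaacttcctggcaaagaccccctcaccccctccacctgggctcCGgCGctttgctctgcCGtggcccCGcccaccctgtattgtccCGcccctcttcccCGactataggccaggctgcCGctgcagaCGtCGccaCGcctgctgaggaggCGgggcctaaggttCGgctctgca
The printed stretch of *Zfp57* holds 6 CpGs and that of *Trim28* 17. In the whole windows of 300 bases, the 3 starts of *Zfp57* had 6, 9 and 4 CpGs, *Zfp445* 10, *Arid4b* 14, *Setdb1* 15 and *Trim28* 23, where the median of all windows was 7. Of the 7 factors, 5 had a window, and *Dppa3* and *Arid4a* did not. The window of *Trim28* is the one among them that holds the hexamer TGCCGC.

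*Setdb1* lies on chromosome 3 (chr3:95229399-95264541, minus strand). It was the steadiest factor within a stage, at 207 and 189 CPM in B/J ESCs and at 198 and 190.2 CPM in J/B ESCs. In NPCs it was at 93.5 and 105.1 CPM for B/J and at 101 and 106 CPM for J/B. The stages did not overlap, at 195.8 ± 8.25 and 101 ± 5.73 CPM (SD, n = 4 each), with coefficients of variation of 4.21% and 5.65%. Its log2 fold change was -0.95 (SE 0.11, adjusted p = 2.07e-04), -0.99 within B/J (adjusted p = 0.00172) and -0.91 within J/B (adjusted p = 0.00270). The fall was smaller on library totals (-0.47, adjusted p = 0.00739, and -0.42 within J/B, adjusted p = 0.0595) and was not called with housekeeping scaling (-0.31, adjusted p = 0.0933).

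*Setdb1* counts were therefore set against *Trim28* counts within each library, which needs no scaling. There were 0.0538 and 0.0593 *Setdb1* counts per *Trim28* count in B/J ESCs and 0.0538 and 0.0649 in J/B ESCs. The NPC libraries had 0.182 and 0.193 (B/J) and 0.149 and 0.209 (J/B). The mean log2 ratio was higher by 1.66 in NPCs, with SDs of 0.13 in ESCs and 0.21 in NPCs. The ratio of *Zfp57* to *Trim28* overlapped between the stages, at 0.129 to 0.190 in ESCs and 0.0760 to 0.231 in NPCs.

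**Figure D2:**
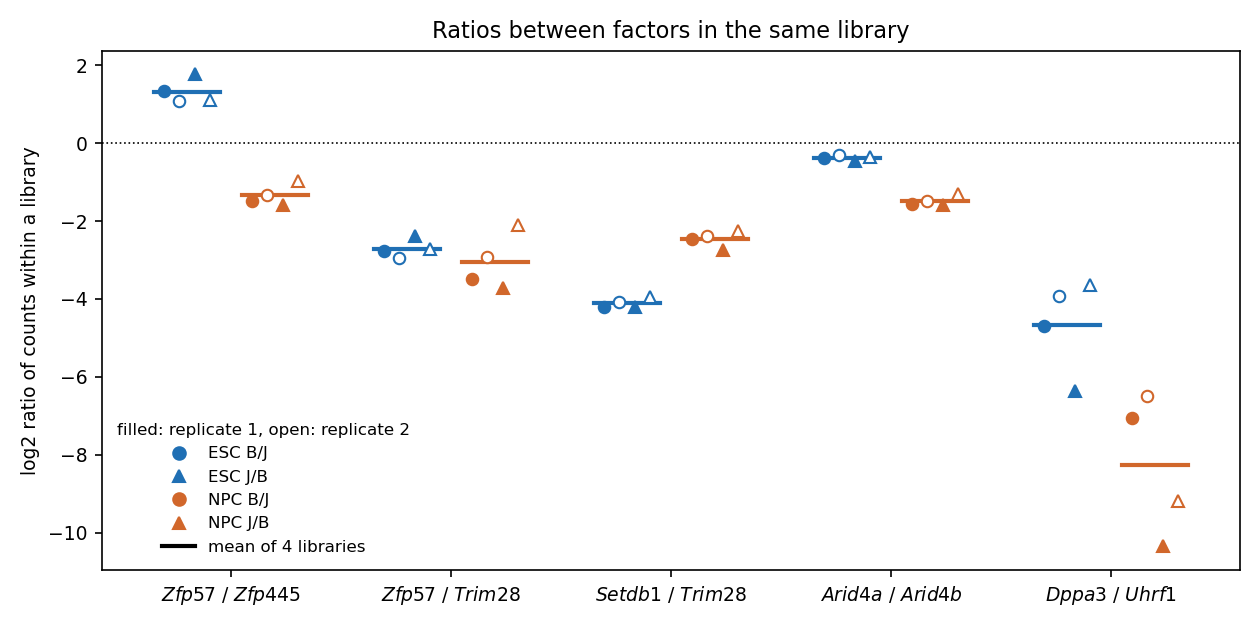
Log2 ratio of the counts of paired genes within each library, with circles for B/J, triangles for J/B, filled symbols for replicate 1, open symbols for replicate 2 and bars for the mean of 4 libraries. ESC and NPC libraries are apart for *Zfp57*/*Zfp445*, *Setdb1*/*Trim28*, *Arid4a*/*Arid4b* and *Dppa3*/*Uhrf1*, and overlap for *Zfp57*/*Trim28*.

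Most partners of TRIM28 and SETDB1 were lower in NPCs. Of 17 genes for heterochromatin protein HP1, NuRD deacetylase, SUMO and related cofactors, 15 were called lower and 1 higher, with a median log2 fold change of -1.01. On library totals 9 were called lower, with housekeeping scaling 8, and 1 higher in both. The median of the list was then -0.52 and -0.35, where the median of all genes was 0.65 and 0.80. The 4 largest changes were those of *Resf1*, a cofactor of SETDB1 (-2.14, adjusted p = 4.55e-05), *Morc3* (-2.04, adjusted p = 3.36e-05), *Hdac1*, a histone deacetylase (-1.91, adjusted p = 2.91e-05), and *Chd3*, a NuRD remodeller that rose (1.79, adjusted p = 0.00208). *Hdac2*, the paralog of *Hdac1*, was at 184 ± 55.9 CPM (ESCs) and 177 ± 35.9 CPM (NPCs) and was not called (adjusted p = 0.809). Among 8 genes of other H3K9 methyltransferases and of the silencing complex HUSH with its cofactor *Morc2a*, 4 were called lower and 1 higher with a median of -0.58. With housekeeping scaling 2 were lower and 3 higher with a median of 0.04, where the median of all genes was 0.80 and 8469 of 16399 were called higher. *Tasor*, the scaffold of HUSH, fell by 1.89 (adjusted p = 8.14e-05), *Morc2a* fell by 1.16 (adjusted p = 9.97e-05), *Mphosph8*, its H3K9me3 reader, fell by 1.14 (adjusted p = 8.42e-04), and *Suv39h1*, a methyltransferase of pericentric heterochromatin, rose by 1.59 (adjusted p = 8.36e-04).

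*Dppa3* lies on chromosome 6 (chr6:122586548-122607237, plus strand). It was read at 29.2 CPM (673 counts) and 39.5 CPM (923 counts) in B/J ESCs, and at 8.32 CPM (156 counts) and 37.4 CPM (878 counts) in J/B ESCs. In B/J NPCs it was at 0.968 CPM (34 counts, 95% exact Poisson interval 0.671 to 1.35) and 1.76 CPM (55 counts, 1.32 to 2.28). In J/B NPCs it was at 0.1535 CPM (6 counts, 0.0563 to 0.334) and 0.226 CPM (7 counts, 0.0909 to 0.466). The stages did not overlap, and ESC J/B replicate 1 was 4.498-fold below the other library of its group, far outside the counting error, which is all that these intervals cover.

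Over both crosses the log2 fold change of *Dppa3* was -5.78 (SE 0.57, adjusted p = 9.42e-05), -4.66 within B/J (SE 0.74, adjusted p = 0.00169) and -6.90 within J/B (SE 0.87, adjusted p = 7.67e-04). The call held in all 19 alternatives, between -6.14 and -5.04. ESC J/B replicates 1 and 2 set the size, since the value over both crosses was -6.14 without replicate 1 and -5.04 without replicate 2, and within J/B -7.61 and -5.42. In NPCs *Dppa3* was lower in J/B than in B/J in both libraries, by 2.83 on the log2 scale (SE 0.82), which had an unadjusted p of 0.00929 and did not pass the adjustment over all genes (adjusted p = 0.734). The interaction of stage and cross was -2.24 (SE 1.03, unadjusted p = 0.0626, adjusted p = 0.99995) and was not called, and it ran from -2.95 to -0.77 when a library was left out, the latter without ESC J/B replicate 2.

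Genes of pluripotency were set beside *Dppa3*. ESC J/B replicate 1, its lowest ESC library, had the highest sum of the 10 pluripotency markers among the 4 ESC libraries (8692 CPM against 5658 to 7963) and the lowest sum of the 4 formative and primed markers (153 CPM against 338 to 808). Single markers did not all follow. *Tfcp2l1* (1336 CPM against 498 to 785) and *Tbx3* (372 against 119 to 159) were highest there, but *Zfp42* was lowest (114 against 119.7 to 137), *Esrrb* (1029.7 CPM) was below the 1197 CPM of ESC B/J replicate 1, and *Klf4* (514 CPM) was below both B/J libraries (542 and 547 CPM). *Dnmt3b* (143 against 329 to 755), *Fgf5* and *Otx2* were lowest there, but *Pou3f1* was not (6.72 CPM against 5.99 CPM in ESC B/J replicate 1). The same library had the highest *Zfp57*, and it alone read the 2-cell-like markers above 1 CPM, with a sum of 32.9 CPM over 5 genes against 0.0852 to 0.0868 CPM in the others. It also had the highest fibroblast sum of the ESC libraries, 126 CPM against 47.3 to 54.6 CPM. Among NPCs, the library with the highest *Dppa3*, B/J replicate 2, had the highest *Nanog* (37.3 CPM against 6.22 to 11.1) and the highest *Pou5f1* (49.98 against 17.1 to 19.5). Its sum of the 10 pluripotency markers was also the highest (409.8 CPM against 200.6 to 292). Its *Klf4* (33.7 CPM) was below that of NPC B/J replicate 1 (53.8) and J/B replicate 2 (44.3). NPC B/J replicate 1, with the next highest *Dppa3*, had the lowest sum (200.6 CPM) and the lowest *Pou5f1*. The part of cells with these markers in the level of *Dppa3* was not tested.

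The counted neighbours of *Dppa3* on chromosome 6 belong to a cluster of pluripotency genes, and all 4 were called lower in NPCs. *Nanog* fell by 5.72 (adjusted p = 6.29e-05) and *Gdf3*, a ligand of the TGF-β family, fell by 6.14 (adjusted p = 2.91e-05), close to *Dppa3*. *Slc2a3*, a glucose transporter, fell by 1.27 (adjusted p = 0.00286) and *Apobec1*, a cytidine deaminase, fell by 1.14 (adjusted p = 0.0382). *Gdf3* shares 184 exonic bases with *Dppa3* on the opposite strand, outside the canonical transcripts. Around all 7 factors, 25 of 28 such neighbours were tested, of which 12 were called lower and 5 higher. They include *H2-M5* next to *Zfp57*, which fell by 4.10 (adjusted p = 7.98e-04), *Zbtb45* next to *Trim28*, which fell by 1.83 (adjusted p = 4.98e-05), and *Cers2* next to *Setdb1*, which rose by 1.44 (adjusted p = 4.69e-04). *Cers2*, with 649 to 5804 counts per library, shares 1309 exonic bases with *Setdb1* on the opposite strand, 58 of them between the canonical transcripts, and the strand option of the counting is not known. *Mog*, with 0 to 4 counts, shares 1474 with *Zfp57* on the opposite strand, 1069 of them between the canonical transcripts. *H2-M5*, with 53 to 2230 counts, shares 139 with *Zfp57* on the opposite strand, none of them between the canonical transcripts.

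Genes of the methylation machinery on which these factors act were mostly lower as well. Of 7 genes for the maintenance of DNA methylation, 5 were called lower and 1 higher, with a median of -1.71, and the same counts were found on library totals and with housekeeping scaling. *Hells*, a remodeller needed for methylation of repeats, fell by 2.74 (adjusted p = 3.95e-05), *Usp7*, a deubiquitinase that stabilises DNMT1, fell by 2.02 (adjusted p = 1.54e-05), *Uhrf1*, which recruits DNMT1 to hemimethylated DNA, fell by 2.02 (adjusted p = 9.73e-05), and *Cdca7*, the partner of HELLS, fell by 1.71 (adjusted p = 5.65e-04). The gene called higher was *Uhrf2*, the paralog of *Uhrf1* (0.53, adjusted p = 0.0185), named after its value was seen. *Smchd1* was not called (-0.05, adjusted p = 0.812). *Dppa3* fell further than *Uhrf1*, whose protein it restrains. There were 0.0122 to 0.0803 *Dppa3* counts per *Uhrf1* count in ESCs and 0.000768 to 0.0112 in NPCs, without overlap but with ESC J/B replicate 1 (0.0122) next to NPC B/J replicate 2 (0.0112).

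Of 6 genes that establish or remove DNA methylation, 4 were called lower and 1 higher. *Dnmt3l*, the cofactor that sets imprints in germ cells, fell by 5.36 (adjusted p = 8.90e-05), *Tet1* fell by 3.96 (adjusted p = 1.19e-04) and *Dnmt3b* fell by 3.28 (adjusted p = 0.00139), while *Tet3* rose by 3.25 (adjusted p = 2.91e-05). *Dnmt3a* was not called, with a mean of 219 ± 161.9 CPM for ESCs and of 199 ± 30.7 CPM for NPCs (adjusted p = 0.969). Of 6 other maternal oocyte factors linked to imprints, 3 passed the filter, *Ooep*, *Khdc3* and *Tle6*, and all 3 were called lower (log2 fold changes of -5.80, -5.40 and -3.42). Of 7 germ cell markers, a cell type in which *Dppa3* is also read, 5 were called lower in NPCs and 0 higher, and on library totals 3 were lower and 2 higher.

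*Arid4a* lies on chromosome 12 (chr12:71062144-71146121, plus strand). It was read at 44.5 and 53.2 CPM in B/J ESCs and at 38.45 and 59.4 CPM in J/B ESCs. In NPCs it was at 29.9 and 36.5 CPM for B/J and at 25.3 and 40.7 CPM for J/B, so that the highest NPC library lay within the range of the ESC libraries. The log2 fold change was -0.56 (SE 0.22, adjusted p = 0.0483) over both crosses, and -0.56 within B/J (adjusted p = 0.156) and -0.57 within J/B (adjusted p = 0.150), where it was not called. The call was lost in 6 of the 8 fits that left out a library, with adjusted p of 0.0756 and 0.138 without ESC B/J replicate 1 or 2, 0.161 without ESC J/B replicate 2, 0.123 or 0.0610 when an NPC B/J replicate (1 or 2) was dropped, and 0.134 without NPC J/B replicate 1. It was also lost on library totals (-0.09), with housekeeping scaling, which turned the sign (0.07, adjusted p = 0.830), with RLE factors (adjusted p = 0.0526), with no filter on low counts (0.0509), with a mean of at least 1 CPM (0.0529) and in the libraries with replicate number 1 alone (0.0999), so that 12 of 19 alternatives lost it. With the replicate number as a block the adjusted p was 0.00761 over both crosses, and *Arid4a* was then also called within B/J (0.0378) and within J/B (0.0360).

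*Arid4b*, its paralog, lies on chromosome 13 (chr13:14237817-14374188, plus strand). It was read at 58.0 and 66.0 CPM in B/J ESCs and at 52.5 and 75.4 CPM in J/B ESCs. In NPCs it was at 88.1 and 103 CPM for B/J and at 76.5 and 101 CPM for J/B, so that the stages did not overlap, by a margin of 75.4 to 76.5 CPM. It rose with a log2 fold change of 0.55 (SE 0.17, adjusted p = 0.0201), and 0.62 within B/J (adjusted p = 0.0558) and 0.47 within J/B (adjusted p = 0.128), where it was not called. It was higher on library totals (1.02, adjusted p = 0.00185) and with housekeeping scaling (1.18, adjusted p = 0.00290). With the replicate number as a block, *Arid4b* was called within B/J (adjusted p = 0.0136) and within J/B (0.0358) too. The call was lost without ESC B/J replicate 1 (adjusted p = 0.0711), ESC J/B replicate 1 (0.0577), NPC B/J replicate 2 (0.0624) or NPC J/B replicate 2 (0.0725).

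Side by side within libraries, the paralogs parted between the stages. There were 0.768 and 0.806 *Arid4a* counts per *Arid4b* count in B/J ESCs and 0.733 and 0.787 in J/B ESCs. The NPC libraries had 0.339 and 0.354 (B/J) and 0.331 and 0.403 (J/B). The mean log2 ratio was lower by 1.12 in NPCs, a difference that no choice of scaling can alter, and its SDs were 0.06 in ESCs and 0.13 in NPCs, the smallest of the 5 ratios computed. Both genes were higher in replicate 2 than in replicate 1 in each of the 4 groups.

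Of 15 genes for the SIN3 complex and for the retinoblastoma protein, to which ARID4 proteins bind, 8 were called lower and 3 higher with a median of -0.60. With library totals 5 were lower and 6 higher, and with housekeeping scaling 4 and 6, with a median of 0.03. The median of all genes moved by as much, from 0.17 to 0.65 on library totals and 0.80 with housekeeping scaling, where 8016 and 8469 of the 16399 genes were called higher, so that the median of the list lay below that of all genes under each scaling. The scaffold genes *Sin3a* and *Sin3b* went opposite ways in the TMM fit. *Sin3a* fell by 1.57 (adjusted p = 4.00e-05) and *Sin3b* rose by 2.57 (adjusted p = 5.56e-05), from 70.6 ± 5.97 to 457 ± 265 CPM. *Rb1*, the retinoblastoma gene, rose by 2.20 (adjusted p = 3.22e-04), and *Sinhcaf*, a SIN3 subunit of ESCs, fell by 1.801 (adjusted p = 2.40e-04).

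**Figure D3:**
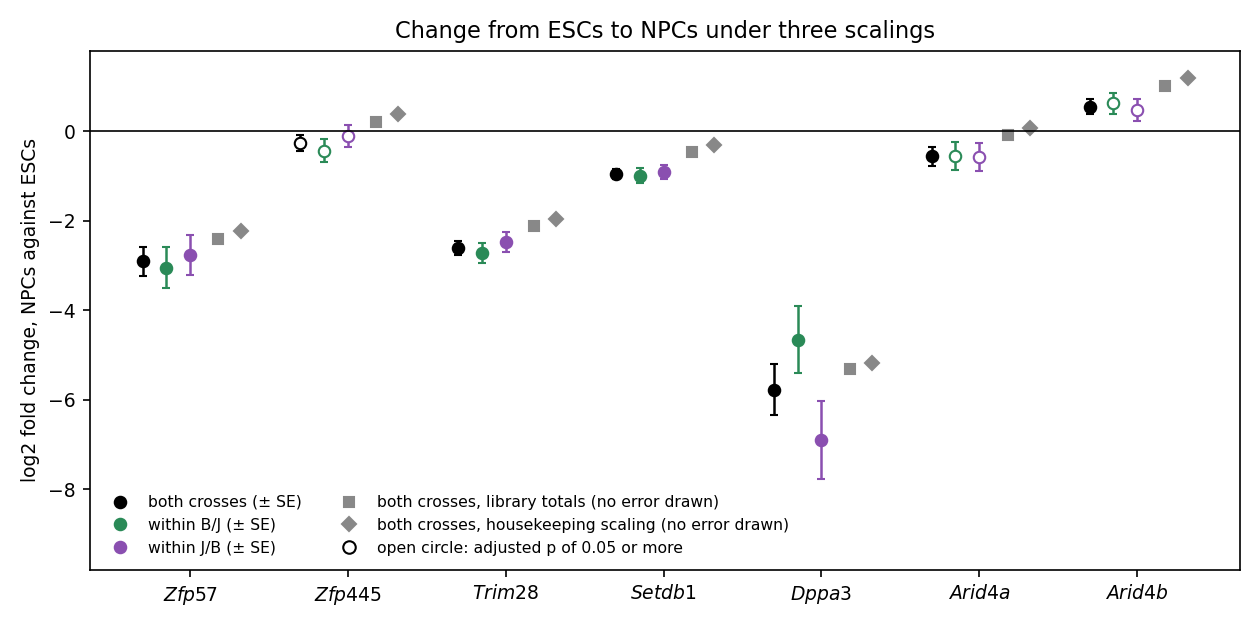
Log2 fold change of each factor between NPCs and ESCs over both crosses, within B/J and within J/B, with the standard error of the fit and with open circles for adjusted p of 0.05 or more, beside the value over both crosses under 2 other scalings (grey). *Zfp57*, *Trim28* and *Dppa3* lie below -1.9 throughout, *Arid4b* lies above 0 throughout, *Zfp445* lies above 0 with both other scalings, and *Arid4a* does with housekeeping scaling.

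Within a single cross, the same 4 factors were called in B/J and in J/B, *Zfp57*, *Trim28*, *Setdb1* and *Dppa3*, all lower in NPCs. Of all genes, 25.6% were called lower and 30.1% higher within B/J, and 25.3% lower and 29.1% higher within J/B. No factor was called for the interaction of stage and cross, where 0% of genes were called (0 with edgeR, 573 at an unadjusted p under 0.05, 11 with DESeq2 and 0 with limma-voom). No factor was called between the crosses in ESCs, where again 0% of genes were called (346 at an unadjusted p under 0.05, 10 with DESeq2, 0 with limma-voom), or in NPCs, where 0.0061% were called, 1 gene (1050 at an unadjusted p under 0.05, 70 with DESeq2, 1 with limma-voom). The differences of the 6 factors other than *Dppa3* between J/B and B/J ran from -0.09 to 0.24 in ESCs and from -0.11 to 0.52 in NPCs on the log2 scale. Their standard errors were 0.16 to 0.42, and the lowest unadjusted p of the edgeR test was 0.590 in ESCs and 0.242 in NPCs. The smallest difference that 2 libraries per group could detect was not worked out.

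Levels were compared between the factors per kilobase of the canonical transcript. The lengths are from GENCODE vM39, while the study's methods name an annotation based on the UCSC refGene track, so that counts and lengths may not match. In ESCs the order was *Trim28* (1039 ± 129 CPM per kb, SD, n = 4), *Zfp57* (76.0 ± 18.6), *Setdb1* (42.4 ± 1.78), *Dppa3* (34.1 ± 17.0), *Zfp445* (33.5 ± 1.7999), *Arid4b* (10.3 ± 1.62) and *Arid4a* (8.43 ± 1.59). *Setdb1* and *Dppa3*, *Dppa3* and *Zfp445*, and the ARID4 genes did not differ beyond the ranges of their libraries, and the range of *Dppa3*, from 9.92 to 47.0 CPM per kb, also reached into those of both ARID4 genes. In NPCs *Trim28* stayed first (171 ± 23.9), followed by *Zfp445* (27.9 ± 7.03), *Setdb1* (22.0 ± 1.24), *Arid4b* (15.003 ± 2.01), *Zfp57* (10.3 ± 4.65), *Arid4a* (5.71 ± 1.18) and *Dppa3* (0.925 ± 0.893). There *Zfp445* and *Setdb1*, *Arid4b* and *Zfp57*, and *Zfp57* and *Arid4a* overlapped. *Zfp57* thus went from place 2 in ESCs to place 5 in NPCs, and *Zfp445* from place 5 to place 2. With the length of all annotated exons in place of the canonical transcript, *Zfp445* took place 3 in ESCs and kept place 2 in NPCs, *Setdb1* took place 5 in ESCs, *Arid4a* passed *Arid4b* in ESCs, and *Zfp57* took place 4 in NPCs.

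For each factor, the genes of at least 1 CPM with the closest pattern were sought by Pearson's r of log2 CPM over the 8 libraries, among 14013 genes, as a description of libraries that share a stage. *Trim28* was tracked most closely by *Dyrk3*, a kinase, *Apex1*, a base excision repair endonuclease, and *Tcof1*, a nucleolar protein (all r = 0.999). *Zfp57* was nearest to *Zfp955a*, another zinc finger gene (0.994), *Jmjd1c* (0.994) and *Gm14305* (0.993), and *Setdb1* to *Pheta2* (0.998), *2610507B11Rik* (0.997) and *Crkl* (0.997). For *Dppa3* the highest r was that of *Ubap2l* (0.994), for *Zfp445* that of *Tnrc6c* (0.981), for *Arid4a* that of *Tubgcp5* (0.978), and for *Arid4b* that of *Mtcp1* (0.989).

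**Figure D4:**
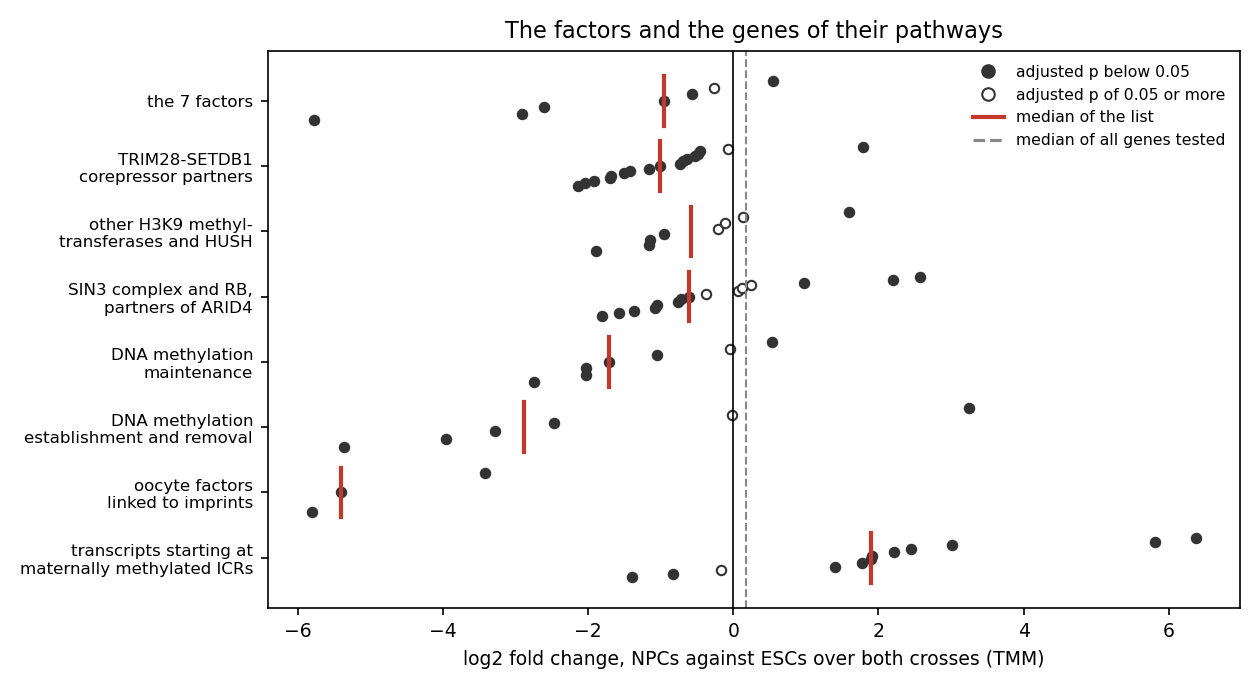
Log2 fold change between NPCs and ESCs over both crosses for the 7 factors and the tested genes of 7 related lists, filled where the adjusted p was below 0.05, with the median of each list (red bar) and of all genes tested (dashed line, 0.17). The lists of methylation, corepressor and oocyte genes have medians between -5.40 and -0.58, and the transcripts that start at ICRs a median of 1.90.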

How the data were processed

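RNA-seq counts per gene were deposited by the authors for 8 polyA libraries, 2 for each of ESCs and day 12 NPCs of the B/J and J/B crosses. Per the study's methods, read pairs were aligned with TopHat2 to mm39 with strain polymorphisms masked, and properly paired alignments above a mapping quality were kept. The submitters' processing notes also name HTSeq, DESeq2 and edgeR, without versions. The study's methods name 2 alternative library kits and 2 alternative sequencers for the RNA-seq. Which of them served each library, and the strand option of the counting, were not stated in the sources read. The part of kit and sequencer in the values was not tested. Closing entries that name no gene were left out of the totals. Reads on no annotated feature were 5.76% to 10.9% and ambiguous reads 0.355% to 0.554% of each library.

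Counts were tested with edgeR 4.0.16 in R 4.3.3 (limma 3.58.1, DESeq2 1.42.0 for alternatives). Genes passed filterByExpr with a minimum count of 10, libraries were scaled by TMM, and a quasi-likelihood model of 4 group means was fitted to 16399 genes and checked on simulated data. The stage effect is the average of the effects in both crosses, and Benjamini-Hochberg adjustment ran over every gene tested, with a threshold of 0.05. Replicates differed beyond sampling noise in each group and were all kept. Patterns were compared on log2(CPM + 0.5). Positions are from GENCODE vM39 on GRCm39, and promoter windows from RefSeq on GRCm38.p6, with no conversion between builds.

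Genes were named within limits. These were the 7 factors, at most the 4 largest called changes of each list, and contrasts that were not called. The limits also took in the 2 counted neighbours on either side of a factor and up to 3 genes most like each factor. Marker genes were named from their lists. *Uhrf2* and the transcripts with a printed site were named after their values were seen. Members and lists were chosen with earlier results of these data known. Alternatives were other size factors (RLE, library totals, housekeeping genes), DESeq2, limma-voom, no filter, a mean of at least 1 CPM, a 2-fold minimum, a block for the replicate number and leaving out each library. After the data were seen, libraries of a single replicate number and a block within each stage were added.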

Additional observations from a re-analysis of the deposited data

How the results depend on the processing

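*Zfp57*, *Trim28* and *Dppa3* were called lower over both crosses in all 19 alternatives. *Setdb1* lost its call over both crosses in 1 of them, housekeeping scaling, as it did within each cross, and within J/B also on library totals (-0.42, adjusted p = 0.0595). *Arid4a* lost its call in 12 and *Arid4b* in 5. Over both crosses 6 factors were called, and 4 with housekeeping scaling, where 11378 and 11293 of all 16399 genes were called. A change of at least 2-fold in addition left 3 factors, without *Setdb1*, *Arid4a* and *Arid4b*. All genes were not counted at that minimum. *Zfp445* changed sign over both crosses on library totals (0.21), with housekeeping scaling (0.38) and in the libraries with replicate number 2 alone (0.016). It also did so within B/J on library totals (0.045) and with housekeeping scaling (0.10), and within J/B on library totals (0.38), with housekeeping scaling (0.66) and without NPC J/B replicate 1 (0.13, the highest of the 8 fits that left out a library, the lowest being -0.42). *Arid4a* changed sign with housekeeping scaling, over both crosses (0.072) and within J/B (0.18), and the difference of *Dppa3* between crosses in ESCs did so without ESC J/B replicate 1 (0.12, with -2.06 as the lowest value when a library was left out). The causes were not tested.

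Replicate differences correlated between the crosses within ESCs (r = 0.613) and NPCs (r = 0.507) but at 0.047 to 0.092 across the stages. Libraries of 1 number thus deviated together within a stage, and hardly across the stages compared. The labels do not say what the number marks, and it was not taken as a pairing of the stages. With the number as a replicate block, 6 factors were called over both crosses, 6 within B/J and 6 within J/B, and calls rose over all genes too, to 12010 over both crosses from 11378, to 10100 within B/J from 9143 and to 9760 within J/B from 8935. With a replicate block within each stage, added after the data were seen, 7 factors were called over both crosses and 7 within B/J, where 4 were called without it, since *Zfp445* (-0.29 and -0.45), and within B/J *Arid4a* and *Arid4b*, were then called too. Over all 16399 genes, 12845 were called over both crosses and 11321 within B/J under this block. Within J/B, 5700 genes were called without NPC J/B replicate 2 against 8935 with all libraries. Depth limited only *Dppa3*, with 6 and 7 counts in the J/B NPC libraries.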
